A study of Mus musculus with 8 samples.

Results

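The uncoupling proteins Ucp1, Ucp2 and Ucp3, the mitochondrial adenine nucleotide carrier Slc25a4, and the thermogenic regulators Dio2, Prdm16 and Fgf21 were followed in MC903-treated mouse back skin with and without topical propionic acid. These 7 genes were taken by symbol from 25378 genes in the authors' table, and all 7 were found. They were selected on results of this same contrast, propionic acid against control FPKM (Ucp3 had the smallest p of all genes), so their differences between the groups are given as a description. Bulk RNA sequencing was done on lesional back skin of 8 wild type C57BL/6 female mice aged 6 weeks. In the propionic acid group, 4 mice received 5 nmol of MC903 on the back on each of 10 days and, 1 h after it, 1 mM propionic acid. In the control group, 4 mice received the same MC903 and an unspecified control application. Lesions were collected on day 11, and the labels call the samples biological replicates without stating separate cages or litters. MC903, or calcipotriol, activates the vitamin D receptor and is used to raise atopic dermatitis-like lesions in mice. All 8 mice received it, so nothing here compares treated with healthy skin.

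Uncoupling proteins belong to the family of carriers of the inner mitochondrial membrane. Ucp1 lets protons back across that membrane in brown and beige fat, so that the energy of fuel oxidation is released as heat. Ucp2 and Ucp3 are close relatives that do not normally make heat: Ucp2 is widespread and abundant in immune cells, whereas Ucp3 belongs to skeletal muscle, heart and brown fat and is known to follow the supply of fatty acids. Slc25a4 (ANT1) exchanges ADP for ATP and is the form of this carrier typical of muscle. Dio2 makes active thyroid hormone, Prdm16 is a transcriptional coregulator of brown and beige fat identity, and Fgf21 is a hormone of metabolic stress that acts on fat. Whole back skin holds epidermis, hair follicles with sebaceous glands, dermis, white fat and a sheet of skeletal muscle.

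Levels are the authors' FPKM (fragment counts divided by gene length and library size, which lets genes be compared). In each library, 39034193 to 40194111 reads were recovered from the steps between values. The first principal component held control replicates 1 and 3 at its one end with propionic acid replicate 1 at its other, so values without these controls are given where they matter. In bulk tissue, fewer cells of a type and less RNA per cell cannot be told apart. Ucp2 (mean 284 FPKM over the 8 mice) and Slc25a4 (240.2 FPKM) stood in the top tail of all genes, above 98.9% and 98.8% of them. Ucp3 averaged 6.14 FPKM, Dio2 1.70, Prdm16 0.716, Fgf21 0.276 and Ucp1 0.0304. Neighbours in this order overlapped in range for Ucp2 and Slc25a4, for Ucp3 and Dio2, for Dio2 and Prdm16, for Prdm16 and Fgf21, and for Fgf21 and Ucp1, while Slc25a4 and Ucp3 were apart. The test took the 12598 genes that reached 1 FPKM in 4 or more libraries. That left 4 of the 7 genes (Ucp2, Ucp3, Dio2 and Slc25a4), while Ucp1, Prdm16 and Fgf21 have values only. The groups did not overlap for 3.16% of the tested genes: 2.06% were higher in every propionic acid mouse than in every control mouse and 1.1% lower.

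**Figure D1:**
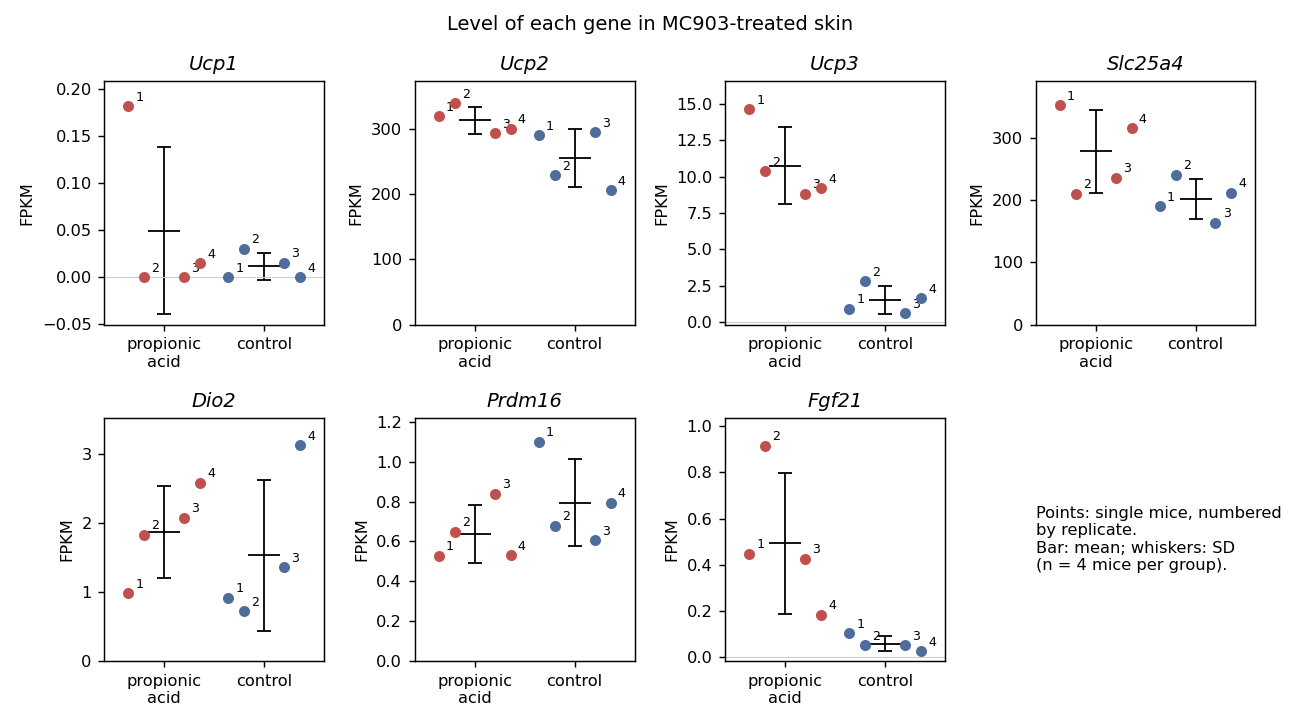
FPKM of the 7 genes in single mice, propionic acid (red) and control (blue), with mean (bar) and SD (whiskers) over 4 mice. Ucp3 and Fgf21 are the 2 genes whose groups do not overlap; in Ucp1, 1 propionic acid mouse at 0.182 FPKM lies apart from values of 0 to 0.0303 in the other mice.

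Ucp1 was at or next to 0 in every mouse. Propionic acid replicates 1 to 4 held 12, 0, 0 and 1 reads (0.182, 0, 0 and 0.0151 FPKM), and control replicates 1 to 4 held 0, 2, 1 and 0 reads (0, 0.0303, 0.0152 and 0 FPKM). Only propionic acid replicate 1 exceeded 3 reads, the limit that a count of 0 allows (0.0453 to 0.0467 FPKM per library, counting error only). No fold change is read from these values, since most libraries of both groups lay at or under that limit.

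Other markers linked to brown or beige fat were present at very different levels in the same skin. Cidea, a lipid droplet protein, averaged 100.9 ± 13.2 FPKM in propionic acid and 90.1 ± 9.34 in control skin (SD, n = 4 each), and Elovl3, an elongase of very long fatty acids, 142 ± 53.8 and 118 ± 34.9. Both genes are also known from sebaceous glands. Cox8b, a respiratory chain subunit shared with muscle, averaged 88.3 ± 38.4 FPKM in propionic acid and 61.2 ± 26.04 in control skin. Zic1 averaged 4.27 ± 0.936 and 4.28 ± 0.692 FPKM, and Lhx8 0.242 ± 0.0696 and 0.175 ± 0.117. The defining gene of thermogenic fat, Ucp1, was thus near 0 while several genes that other tissues share with such fat were not.

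Ucp3 showed the largest difference of the 7 genes. It had 14.6, 10.4, 8.84 and 9.20 FPKM in propionic acid replicates 1 to 4 and 0.926, 2.84, 0.635 and 1.66 FPKM in control replicates 1 to 4. Every propionic acid mouse lay above every control mouse. The means were 10.8 ± 2.67 and 1.51 ± 0.982 FPKM (SD, n = 4 each), a ratio of 7.11. The recovered reads were 858 to 1436 in propionic acid and 62 to 279 in control skin, so counting error is small beside the spread between mice. The log2 fold change of FPKM + 1 was 2.28 with a standard error of 0.26, and 3.03 with voom, a count-based form of limma, on the recovered reads.

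In limma's test over 12598 genes, Ucp3 had the smallest p and a Benjamini-Hochberg adjusted p of 0.0998, above the threshold of 0.05. No gene passed it (0.0% of 12598), whereas 792 genes (6.29%) had an unadjusted p under 0.05; voom called 0 genes and left 747 at that level. Ucp3 was 1 of 13 genes (0.103%) with an adjusted p under 0.1. Ucp3 passed the filter by 6 libraries, and its 4 propionic acid values alone would have sufficed. Its adjusted p was 0.02 without control replicate 2, the control mouse with most Ucp3, and 0.0341 with weights per library. Leaving out the control with most Ucp3 favours a smaller p, so that value is no support. Leaving out any other mouse gave 0.0554 to 0.166. The adjusted p was 0.407 with no filter and 0.468 with skeletal muscle markers as a covariate.

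**Figure D2:**
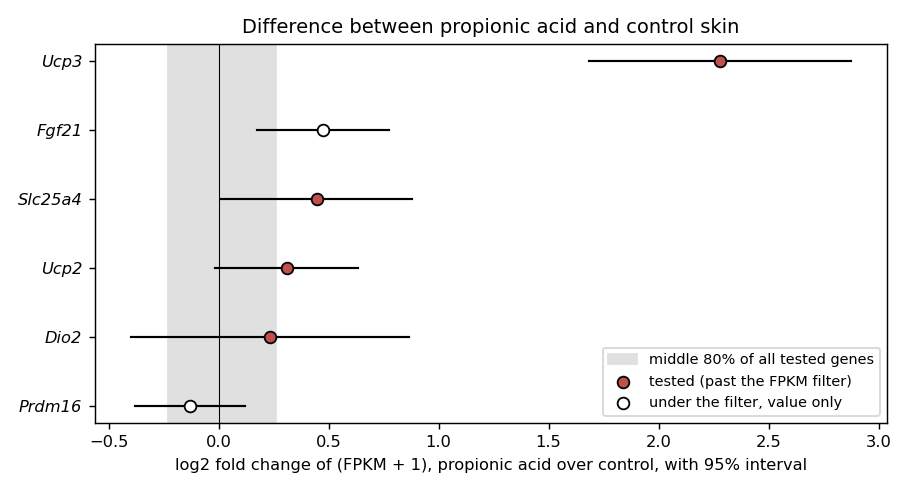
Log2 fold change of FPKM + 1, propionic acid over control, with its 95% interval for each gene but Ucp1; the grey band spans the middle 80% of all tested genes, -0.23 to 0.26. Ucp3 lies far above the band at 2.28, and open points mark Fgf21 and Prdm16, which are under the filter.

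Ucp2 lies directly downstream of Ucp3 on the same strand of chromosome 7, yet the neighbours differed in level and in the size of the group difference. Ucp3 spans chr7:100472991-100486432 and Ucp2 chr7:100493337-100499629 (RefSeq, GRCm38.p6, the assembly of mm10), with 6904 bases between them. Ucp2 had 319.7, 339, 293 and 300.3 FPKM in propionic acid replicates 1 to 4 and 290.2, 229, 295 and 206 FPKM in control replicates 1 to 4. The ranges met only where control replicate 3 exceeded propionic acid replicate 3. The means were 313 ± 20.6 and 255 ± 44.5 FPKM, a ratio of 1.23 and a log2 fold change of 0.31 with a standard error of 0.15 (limma adjusted p = 0.802). It was 0.52 without control replicates 1 and 3, the controls with high Ucp2.

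Set against each other within a mouse, Ucp2 was 21.8 to 33.2 times as abundant per length as Ucp3 in propionic acid skin and 80.6 to 465 times in control skin. Ucp3 made up 4.38, 2.97, 2.93 and 2.97% of the FPKM of the 3 uncoupling proteins in propionic acid replicates 1 to 4. In control replicates 1 to 4 it made up 0.318, 1.23, 0.215 and 0.80%. Neither the ratios nor these shares overlapped between groups, but both contain the Ucp3 level by which the gene was chosen, so they add no support. After each group's mean was subtracted, Ucp2 and Ucp3 correlated with r = -0.56 over the 8 mice, and without that step with r = 0.51. The controls with more Ucp3 (replicates 2 and 4) were those with less Ucp2. The propionic acid mice did not show this inverse order, since replicate 3 was lowest in both genes. The nearest tested genes beside Ucp1 were Elmod2 at 2.76 ± 0.629 and 3.17 ± 0.142 FPKM and Tbc1d9 at 2.65 ± 0.546 and 2.58 ± 0.727 FPKM in propionic acid and control skin.

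The 250 bases before the start sites of Ucp3 (chr7:100472741-100472990, plus strand) and Ucp2 (chr7:100493108-100493357, plus strand) are shown because these neighbours share a locus. The Ucp2 start used by the promoter table, chr7:100493358, lies inside the span given above, so its window reaches 21 bases into that span. Capitals mark AGGTCA, the core of sites bound by PPAR and other nuclear receptors, searched on both strands.
Ucp3: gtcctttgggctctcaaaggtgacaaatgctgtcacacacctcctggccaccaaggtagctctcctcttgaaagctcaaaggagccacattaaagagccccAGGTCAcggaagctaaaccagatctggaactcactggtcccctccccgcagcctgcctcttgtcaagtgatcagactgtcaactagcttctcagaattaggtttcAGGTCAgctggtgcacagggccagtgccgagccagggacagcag
Ucp2: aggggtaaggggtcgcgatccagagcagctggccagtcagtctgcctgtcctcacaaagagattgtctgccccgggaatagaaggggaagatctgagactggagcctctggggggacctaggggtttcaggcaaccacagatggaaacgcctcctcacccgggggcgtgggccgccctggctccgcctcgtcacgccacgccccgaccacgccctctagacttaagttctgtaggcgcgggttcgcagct
The Ucp3 window holds AGGTCA at 149 and 44 bases before the start, both on the plus strand, and the Ucp2 window holds none. The Ucp1 window also holds it, 14 bases before the start. Among 32851 mouse promoter windows of the same length, 14% hold AGGTCA on either strand. The paired form, AGGTCA repeated after any 1 base, is a full PPAR element and was found in none of the 7 windows and in 0.0335% of all windows. Only this exact string was searched. It is so rare that its absence does not show that the windows lack a PPAR element. Sequences are from RefSeq (GRCm38.p6), and the motifs were chosen after the sequences had been read. Of the 7 windows, that of Prdm16 lies wholly inside the gene's span, because the start site used lies within it.

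Fgf21 was scarce in all mice and higher in the propionic acid group. Propionic acid replicates 1 to 4 held 17, 34, 16 and 7 reads (0.448, 0.915, 0.426 and 0.184 FPKM), and control replicates 1 to 4 held 4, 2, 2 and 1 reads (0.105, 0.0526, 0.0529 and 0.0270 FPKM). The groups did not overlap. Among the tested genes, which do not include Fgf21, 2.06% did not overlap in this direction, and no such share was computed for genes this scarce. Summed over the groups there were 74 and 9 reads, a ratio of 8.23 after correction for depth with a 95% interval of 4.11 to 18.7 (exact Clopper-Pearson, counting error only). Because most values lie below 1, the log2 fold change depends on the pseudocount: 0.47 with 1 added to FPKM, 1.77 with 0.1, and 2.70 with voom. Fgf21 entered the test only with a filter of 0.1 FPKM (limma adjusted p = 0.469) or no filter (adjusted p = 0.776), and passed in neither. The neighbouring Fut1, a fucosyltransferase 2115 bases away, averaged 2.24 ± 0.691 and 1.53 ± 0.578 FPKM.

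The window before the Fgf21 start (chr7:45615491-45615740, minus strand) is shown because Fgf21 and Ucp3 were the genes without overlap. Capitals mark TGATGCAA, the amino acid response element bound by ATF4 (here on the opposite strand), the E-box CACGTG bound by clock and related factors, and the TATA box TATAAA.
Fgf21: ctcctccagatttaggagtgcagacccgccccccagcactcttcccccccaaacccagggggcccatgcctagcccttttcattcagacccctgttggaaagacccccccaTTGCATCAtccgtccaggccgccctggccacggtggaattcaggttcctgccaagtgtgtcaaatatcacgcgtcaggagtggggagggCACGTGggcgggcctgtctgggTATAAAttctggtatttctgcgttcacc
They lie 139, 50 and 28 bases before the start. In all windows, TGATGCAA occurs in 0.791%, CACGTG in 6.02% and TATAAA in 12.4%. None of these occurs in the Ucp3 window, and AGGTCA is absent from that of Fgf21. Searched likewise, the cAMP response element TGACGTCA was in the Dio2 window and in 1.55% of all windows.

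Genes around Fgf21 were read from a list of its receptors and of the stress response that drives it. In propionic acid skin the mean was higher for 9 and lower for 2 of the 11 tested, the median log2 fold change was 0.05, and none passed the threshold or separated the groups. Over all tested genes, 51.7% had a higher mean and the median was 0.01. Atf4, the stress transcription factor, averaged 192 ± 21.8 and 187 ± 37.9 FPKM in propionic acid and control skin. Its targets Trib3 (14.3 ± 4.81 and 8.88 ± 1.24 FPKM) and Asns (29.2 ± 7.96 and 20.7 ± 4.42 FPKM) overlapped between groups. The FGF21 coreceptor Klb, under the filter, averaged 1.09 ± 0.614 and 0.403 ± 0.285 FPKM, and the receptor Fgfr1 32.5 ± 2.02 and 31.1 ± 2.26 FPKM.

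Slc25a4 had higher values in part of the propionic acid group. It had 353, 210.1, 236 and 315 FPKM in propionic acid replicates 1 to 4 and 190.2, 241, 164 and 212 FPKM in control replicates 1 to 4. Propionic acid replicates 1 and 4 lay above all controls, and replicates 2 and 3 among them. The means were 279 ± 66.7 and 202 ± 32.6 FPKM, with a log2 fold change of 0.45 and a standard error of 0.19 (limma adjusted p = 0.786). The ubiquitous form Slc25a5 (ANT2) averaged 341 ± 17.5 and 374 ± 13.6 FPKM (log2 fold change -0.13, adjusted p = 0.874). Slc25a4 thus made up 52.3, 37.9, 41.4 and 46.5% of the 2 forms in propionic acid replicates 1 to 4, against 34.3, 38.8, 29.6 and 37.0% in control replicates 1 to 4. These shares overlap through propionic acid replicate 2 and control replicate 2.

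Slc25a4 varied with skeletal muscle markers. The summed FPKM of 15 muscle markers was 8580, 4458, 4847 and 9422 in propionic acid replicates 1 to 4 and 5169, 6932, 4313 and 5198 in control replicates 1 to 4. The propionic acid mice with most Slc25a4 were those with most muscle marker RNA. With group means subtracted, Slc25a4 and the mean log2 level of the tested muscle markers correlated with r = 0.80 over 8 mice, and with this level as a covariate the Slc25a4 log2 fold change was 0.10. It was 0.27 without control replicates 1 and 3.

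For Ucp3 the same markers gave other values. Within groups, Ucp3 correlated at r = 0.32 with the muscle marker level, 0.75 with keratinocyte markers and 0.71 with Slc25a4. It correlated at r = -0.69 with myeloid, with T cell and with endothelial markers. Over all 8 mice without centring, r was 0.69 with muscle and 0.19 with keratinocyte markers. Over so few mice these correlations cannot be ranked, and the tissue that holds Ucp3 was not tested. With the muscle marker level as a covariate the Ucp3 log2 fold change was 2.08 (limma adjusted p = 0.468). Relative to Ckm, the muscle creatine kinase, Ucp3 stood at 0.0136, 0.0146, 0.0132 and 0.00637 in propionic acid replicates 1 to 4 and at 0.00173, 0.00466, 0.00171 and 0.00425 in control replicates 1 to 4. These ratios did not overlap, but their numerator is the Ucp3 level by which the gene was chosen. Whether muscle content accounts for the Ucp3 difference was not tested. Of 13 muscle markers tested, 10 had a higher mean with a median log2 fold change of 0.47. It was 0.26 without propionic acid replicate 1, 0.27 without propionic acid replicate 4 and 0.20 without control replicates 1 and 3. The fast-fibre genes Myh4 (223 ± 110.5 and 24.7 ± 18.1 FPKM) and Actn3 (157 ± 58.9 and 39.5 ± 10.1 FPKM) did not overlap and were higher, and Myh1 (139.5 ± 90.3 and 417 ± 118 FPKM) did not overlap and was lower. The slow-fibre myosin Myh7 was near 0 (0.0103 ± 0.0116 and 0.0350 ± 0.0699 FPKM).

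**Figure D3:**
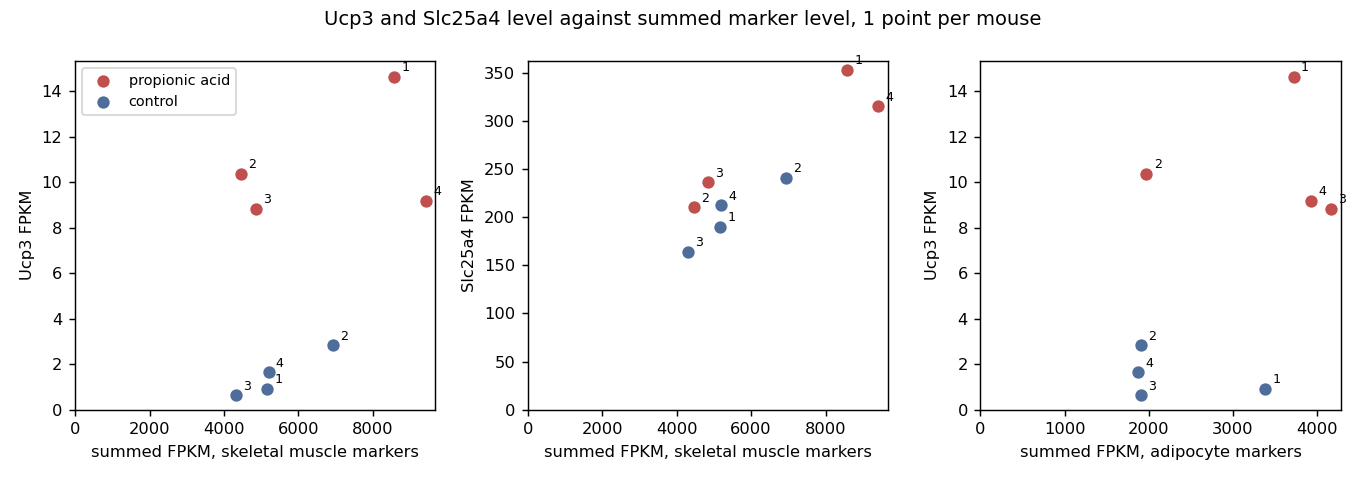
Ucp3 against summed muscle marker FPKM (left), Slc25a4 against the same sum (middle) and Ucp3 against summed adipocyte marker FPKM (right), 1 point per mouse labelled by replicate. Propionic acid replicates 1 and 4 have the highest muscle sums (8580 and 9422) and the most Slc25a4 (353 and 315 FPKM), and control replicate 2 has the highest muscle sum (6932) and the most Ucp3 (2.84 FPKM) of the controls.

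White fat markers were higher in most propionic acid mice as well. Their summed FPKM was 3725, 1974, 4167 and 3929 in propionic acid replicates 1 to 4 and 3386, 1908, 1910 and 1875 in control replicates 1 to 4. Control replicate 1 lay with the propionic acid mice and propionic acid replicate 2 with the controls. Of 11 tested markers, 10 had a higher mean, and the median log2 fold change was 0.40. It was 0.84 without control replicate 1, 0.74 without propionic acid replicate 4, 0.68 without propionic acid replicate 2 and 0.78 without control replicates 1 and 3. Cidec, a lipid droplet protein of fat, did not overlap (194 ± 49.1 and 90.8 ± 13.8 FPKM). With the fat marker level as a covariate the Ucp3 log2 fold change was 2.48 (limma adjusted p = 0.115). With the muscle level as a covariate, the log2 fold change was 0.35 for Ucp2, 0.47 for Dio2, 0.71 for Fgf21 and -0.04 for Prdm16. With the fat level it was 0.25 for Ucp2, 0.40 for Dio2, 0.53 for Fgf21, -0.28 for Prdm16 and 0.46 for Slc25a4.

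Dio2 and Prdm16 overlapped widely between the groups. Dio2 had 0.985, 1.83, 2.08 and 2.59 FPKM in propionic acid replicates 1 to 4 and 0.924, 0.730, 1.36 and 3.13 FPKM in control replicates 1 to 4. The highest value belonged to a control mouse. The log2 fold change was 0.23 with a standard error of 0.28 and a 95% interval of -0.40 to 0.87 (limma adjusted p = 0.903), which leaves room for a change in either direction. Leaving out 1 mouse moved it between 0.08 (without control replicate 2) and 0.50 (without control replicate 4).

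Prdm16 had 0.529, 0.648, 0.840 and 0.531 FPKM in propionic acid replicates 1 to 4 and 1.10, 0.679, 0.607 and 0.795 FPKM in control replicates 1 to 4. The means were 0.637 ± 0.146 and 0.795 ± 0.217 FPKM, and control replicate 1 alone exceeded 1 FPKM. It is the one gene of the 7 whose propionic acid mean lay below the control mean (log2 difference -0.13), and the difference was -0.05 without control replicate 1. Exons of Dio2, Prdm16 and Ucp2 overlap those of an opposite-strand gene in the GENCODE annotation by 100, 109 and 305 bases. The gene beside Ucp2 is Dnajb13, at 0.284 ± 0.110 and 0.424 ± 0.0505 FPKM. Without a stated strand setting, reads in these short stretches cannot be told apart.

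Genes that work with these regulators were read as 3 lists. Of 13 tested genes of thyroid hormone handling, 5 were higher and 8 lower by mean, with a median log2 fold change of -0.10. Thra, the main thyroid hormone receptor here, averaged 13.6 ± 1.81 and 12.7 ± 1.32 FPKM, while the deiodinases Dio1 (0.00743 ± 0.00858 and 0.00378 ± 0.00757 FPKM) and Dio3 (0.0573 ± 0.106 and 0.0171 ± 0.0342 FPKM) were near 0. Of 13 tested Prdm16 partners, 7 were higher and 6 lower by mean, with a median of 0.02. Pparg, the receptor that drives fat cell formation, averaged 13.4 ± 1.69 and 12.7 ± 1.74 FPKM. Of 15 tested adrenergic and cAMP genes, 7 were higher and 8 lower by mean, with a median of -0.01 and a range of -0.20 to 1.05. Adrb3, the beta-3 adrenergic receptor of fat, stood at the upper end (5.57 ± 3.79 and 2.14 ± 1.85 FPKM, groups overlapping). In these 3 lists no gene passed the threshold and no gene separated the groups.

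Among 21 tested genes linked to thermogenic fat, 13 were higher and 8 lower by mean, the median log2 fold change was 0.07, and none passed the threshold. The groups did not overlap for Acot2 and P2rx5, both higher, as was so for 2.06% of all tested genes in this direction. Acot2, a mitochondrial acyl-CoA thioesterase, had 8.35, 8.82, 5.36 and 7.48 FPKM in propionic acid replicates 1 to 4 and 2.65, 3.50, 1.61 and 3.43 FPKM in control replicates 1 to 4. Its log2 fold change was 1.18 with a standard error of 0.20 (limma adjusted p = 0.185), above the middle 80% of all tested genes. P2rx5, an ATP-gated channel, averaged 1.67 ± 0.344 and 1.07 ± 0.103 FPKM (adjusted p = 0.681).

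Creatine and calcium cycling are routes of heat production that need no Ucp1. Of 12 tested genes, 8 were higher and 4 lower by mean, with a median log2 fold change of 0.14, and none passed the threshold. Ckm (975 ± 362 and 476 ± 115 FPKM), Ckb, the brain-type creatine kinase also used by thermogenic fat (20.3 ± 3.32 and 12.6 ± 2.97 FPKM), and the fast-muscle calcium pump Atp2a1 (694 ± 228 and 453 ± 91.0 FPKM) were higher without overlap. Ckmt1, a mitochondrial creatine kinase, was lower without overlap (80.96 ± 4.96 and 105 ± 15.9 FPKM). Over all tested genes, 2.06% were higher and 1.1% lower without overlap. Ckm and Atp2a1 are themselves muscle genes, and the muscle marker sums above apply to them.

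The wider family of mitochondrial carriers was read beside Slc25a4 and the uncoupling proteins. Of 38 tested carriers besides the 7 genes, 23 were higher and 15 lower by mean, with a median log2 fold change of 0.03 and a range of -0.39 to 0.97. Slc25a34 stood at the upper end (3.25 ± 1.51 and 1.13 ± 0.656 FPKM, groups overlapping). Slc25a20, the carnitine-acylcarnitine carrier that brings fatty acids into mitochondria, had 41.8, 35.8, 34.3 and 34.1 FPKM in propionic acid replicates 1 to 4 and 32.5, 33.5, 27.4 and 30.4 FPKM in control replicates 1 to 4. Slc25a42, the carrier of coenzyme A, averaged 3.04 ± 0.306 and 1.98 ± 0.253 FPKM (limma adjusted p = 0.442). These were the 2 carriers of the list without overlap, both higher, and none passed the threshold. Over all tested genes, 2.06% were higher without overlap, so so few carriers are no result about the family. The brain-type uncoupling proteins Slc25a27 (UCP4; 0.466 ± 0.124 and 0.356 ± 0.177 FPKM) and Slc25a14 (UCP5; 2.1 ± 0.238 and 2.31 ± 0.375 FPKM) overlapped.

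**Figure D4:**
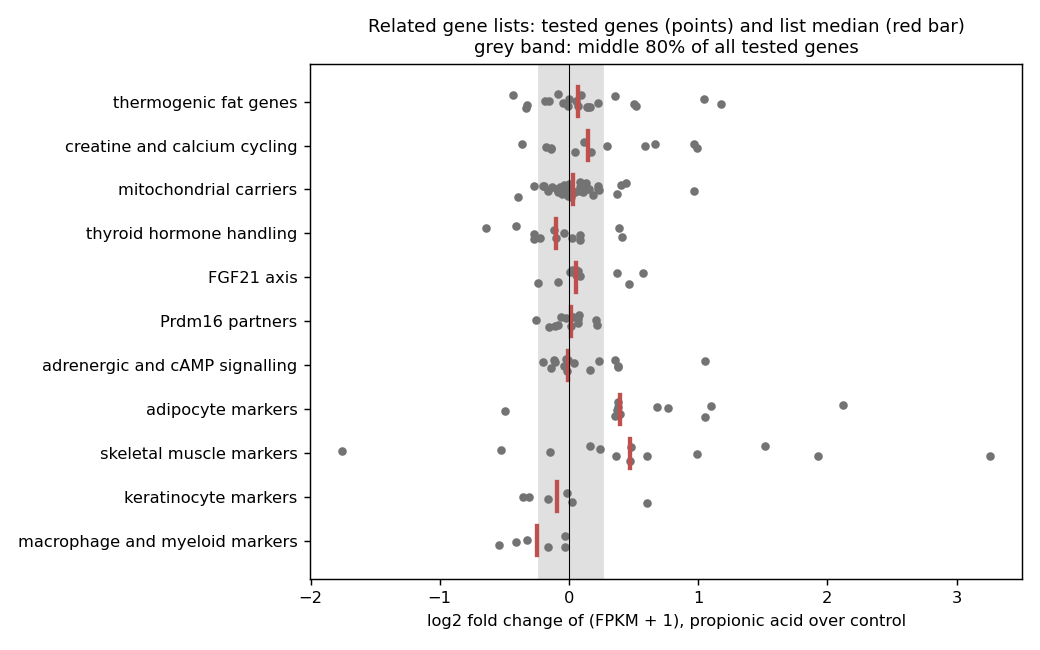
Log2 fold change of FPKM + 1, propionic acid over control, for each tested gene (point) of 7 related lists and 4 marker lists, with list medians (red bars) and the middle 80% of all tested genes (grey band). The 7 related lists have medians from -0.10 to 0.14, inside the band. The muscle (0.47) and adipocyte (0.40) medians lie above it, the myeloid median (-0.24) just below it and the keratinocyte median (-0.09) inside it.

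Single mice moved the medians of some related lists. Creatine and calcium cycling stood at 0.29 without control replicate 1. It stood at 0.06 when propionic acid replicate 3 was left out. The list around Fgf21 stood at 0.17 without control replicate 1 and 0.0034 without control replicate 2. Thyroid hormone handling stood at -0.25 without propionic acid replicate 3 and 0.02 without propionic acid replicate 4.

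Markers of other cell types in the skin had medians nearer to 0 than those of muscle and fat, and several depended on single control libraries. The myeloid and fibroblast medians still lay just below the middle 80% of all tested genes, whose lower edge is -0.23. All 6 myeloid markers averaged less in propionic acid than in control skin (median log2 fold change -0.24, summed FPKM 1064 to 1788 against 1410 to 2051 in control skin). This median was -0.04 without control replicate 1 and 0.05 without control replicates 1 and 3. The T cell marker sums were 37.8 to 57.2 FPKM in propionic acid and 33.98 to 74.7 FPKM in control skin. Keratinocyte markers had a median of -0.09, with 2 higher and 4 lower by mean, and -0.28 without control replicate 1. Krt5, a basal keratin, was lower without overlap (988 ± 67.0 and 1236 ± 192 FPKM, limma adjusted p = 0.802). Krt10, a keratin of differentiating layers, had the highest log2 fold change of the list, 0.61, with wide overlap (233 ± 168 and 229 ± 257 FPKM). The median was -0.26 for 5 fibroblast markers, -0.15 for 4 endothelial markers, -0.15 for 5 T cell markers and 0.10 for 6 sebaceous gland markers. Without control replicate 1 the medians were -0.06 for fibroblast, 0.02 for endothelial and -0.09 for T cell markers. Without control replicates 1 and 3 they were 0.02, 0.16 and 0.37. The T cell median was also 0.04 when control replicate 3 or propionic acid replicate 2 was left out, and the sebaceous median was -0.02 without propionic acid replicate 3. No marker of these lists was at 0 in all mice. Within groups, Ucp2 correlated with the T cell marker level at r = 0.70 and with the myeloid level at r = 0.52, and with the sebaceous level at r = -0.83.

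To describe how the 4 tested genes varied among mice of a group, values were centred on the group means and compared with all other tested genes over the 8 mice. The genes most like Ucp3 were Cyp2j6, a cytochrome P450 (r = 0.99), Wfdc21, a secreted protein of the whey acidic protein family (r = 0.99), and Ccl27a, the skin T cell chemokine of keratinocytes (r = 0.98). Ccl27a had 52.4, 24.5, 22.1 and 26.9 FPKM in propionic acid replicates 1 to 4 and 12.2, 43.7, 10.3 and 22.4 FPKM in control replicates 1 to 4, so like Ucp3 it was highest in propionic acid replicate 1 and control replicate 2. These genes overlapped between groups, with log2 fold changes of -0.02, 0.02 and 0.63. For Slc25a4 they were Fxyd1, a regulator of the sodium pump in muscle and heart (r = 0.99), Tceal8 (r = 0.99) and Nenf (r = 0.98). For Ucp2 they included Ddx19a (r = 0.98) and Plekhb2 (r = 0.97), and for Dio2 they were Nom1 (r = 0.97), Mfn1, a mitochondrial fusion protein (r = 0.97), and Mfsd14a (r = 0.96). These are the highest of 12598 genes over few mice of shared libraries, and no test is attached to them.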

How the data were processed

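Per the labels' protocols, total RNA was extracted with TRIzol and made into VAHTS Universal V6 libraries. The authors deposited FPKM per gene for 8 libraries (4 propionic acid, 4 control). The submitters' processing notes name CASAVA, cutadapt, HISAT2 2.1.0 and mm10, while how fragments were counted (program, strand, annotation) is not stated there or in the labels. Whole reads were recovered from the FPKM steps of all 25378 genes within 0.01 of a read.

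Values were taken as log2(FPKM + 1), which understates changes of low genes, and the fit used R 4.3.3 with limma 3.58.1 (intensity trend, robust, group only, 2-sided, Benjamini-Hochberg adjustment over 12598 genes at 1 FPKM or more in 4 libraries, threshold 0.05). The limma and correlation steps were tested on simulated data. Alternatives were 2 pseudocounts, 2 filters, 2 scalings, voom, library weights, a replicate block, omission of mice and 2 marker covariates. The 7 genes, lists and settings were chosen with earlier results of these data known. Named list genes are up to 3 per list with the largest change among those without overlap and a mean of 1 FPKM or more; likeness names the 3 genes of highest centred r, of which 1 is not reported here. Other genes were chosen after their values were seen. List genes matched the table by symbol except 4 (Gyk, Slc25a54, Fgf15 and the alias Prdm3), which are not analysed here.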

Additional observations from a re-analysis of the deposited data

Results flagged for a closer look

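Single mice stood apart from the other 3 of their group in 6 of 62 groups checked over 31 genes. The limit used gives about 1 in 20 for independent, normally distributed values. These genes were picked from the same data and some vary together, so no excess over chance is read from the count. Ucp1 in propionic acid replicate 1 (0.182 FPKM, 12 reads) stood above the other propionic acid mice. Ckb stood high in propionic acid replicate 4 (25.3 FPKM) and low in control replicate 3 (8.16 FPKM). Cidec was low in propionic acid replicate 2 (120.9 FPKM), the mouse with the lowest adipocyte marker sum of its group. Wfdc21 (117 FPKM) and Ccl27a (52.4 FPKM), which followed Ucp3 within groups, stood high in propionic acid replicate 1.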

How the results depend on the processing

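The count of genes called was 0 under 17 of 20 alternatives. It was 1 (Ucp3) with weights per library, and leaving out 1 mouse gave 0 to 2, with 1 without control replicate 2 (Ucp3) and 2 without control replicate 3 (Nr1d2, adjusted p = 0.0395, and Cbln1, adjusted p = 0.0209). Genes with an unadjusted p under 0.05 numbered 792, and 442 to 1238 with 1 mouse left out, 505 without control replicates 1 and 3, 1351 with no filter, 1715 with the adipocyte covariate and 1916 with weights per library. Over all 20 alternatives the log2 fold change lay between 1.86 and 3.03 for Ucp3 (adjusted p 0.02 to 0.468), 0.21 and 0.52 for Ucp2, 0.10 and 0.64 for Slc25a4, 0.07 and 0.50 for Dio2, 0.35 and 2.76 for Fgf21, and -0.31 and -0.04 for Prdm16, with no change of direction. The Ucp1 difference of 0.05 became -0.0090 without propionic acid replicate 1, which holds 12 of its reads (range -0.0090 to 0.0715 with 1 mouse left out), and -0.0082 with the skeletal muscle covariate; it was 0.28 and 0.56 with pseudocounts of 0.1 and 0.01 and 0.58 with voom.

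Replicate numbers were not taken to pair mice, since deviations of same-numbered libraries correlated with -0.32, -0.08, 0.20 and -0.12. With the replicate block, 0 genes were called, 700 had an unadjusted p under 0.05, and Ucp3 had an adjusted p of 0.0772. Depth limits Ucp1 (13 reads in propionic acid and 3 in control skin) and Fgf21 (74 and 9 reads). Fgf21 is also limited by the spread between mice, with 7 to 34 reads in propionic acid skin (SD 62.0% of the mean FPKM). For the other genes the spread between mice is the limit.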

Other observations

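Some related genes had large mean differences with overlapping groups; these were picked for their values. Cox7a1, a respiratory chain subunit of muscle and brown fat, averaged 25.3 ± 6.64 FPKM in propionic acid and 12.3 ± 5.72 FPKM in control skin (limma adjusted p = 0.489). Ckmt2, the mitochondrial creatine kinase of muscle, averaged 22.7 ± 5.83 and 11.3 ± 3.54 FPKM (adjusted p = 0.476). Ppargc1a, the coactivator that drives mitochondrial genes in muscle and brown fat, was low in both groups at 0.237 ± 0.0451 and 0.206 ± 0.101 FPKM. Sarcolipin (Sln), the muscle regulator of the calcium pump, averaged 20.5 ± 13.3 and 17.8 ± 9.24 FPKM (adjusted p = 0.97).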
